A study of Mus musculus with 288 samples.

Results

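The genes described here are 10 immediate early genes, Fos, Fosb, Jun, Junb, Egr1, Egr2, Nr4a1, Arc, Ier2 and Atf3, taken by symbol from tables of 35904 genes, and all 10 were present. They were measured by RNA-seq in lung, liver, kidney, heart, skeletal muscle and cerebellum of wild type male C57BL/6J mice, 8 weeks old at exposure. One group of mice was kept in normoxia and the other received intermittent hypoxia (IH), repeated short falls from room air (21% oxygen) in the light phase for 7 days, a mouse model of obstructive sleep apnea. Both groups then spent 2 days in constant darkness in room air, and tissues were taken on the second day, every 3 h at 8 time points from 1:30 to 22:30 by the labels' clock, with 3 libraries per time point and treatment. Each tissue therefore has 24 normoxia and 24 IH libraries. The hypoxia had ended before collection, so levels are those left in darkness after exposure, and the labels do not record which libraries came from the same mouse.

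Immediate early genes are transcribed within minutes of a stimulus from promoters that are already poised, without new protein synthesis, and their mRNAs are short-lived. Growth factors, calcium and cAMP reach them through kinases that act on bound factors such as SRF with its ETS partners and CREB. Fos, Fosb, Jun and Junb encode subunits of the AP-1 transcription factor, Egr1 and Egr2 encode zinc finger factors, Nr4a1 encodes an orphan nuclear receptor, Atf3 encodes a stress-induced factor of the ATF family, Arc encodes a postsynaptic protein of neurons, and Ier2 encodes a small nuclear protein.

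RefSeq promoter windows were searched for 7 of the 10 genes, and not for Egr1, Arc and Ier2. Of the 7, 4 are printed because the results below turn on them: Fos, Nr4a1, which varied with Fos in cerebellum, and Junb and Jun, the genes called between treatments. Each sequence is the 250 bases upstream of the annotated start in build GRCm38.p6, read on the gene's strand. Fos lies on the + strand (chr12:85473640-85473889), Junb on the - strand (chr8:84978749-84978998), Nr4a1 on the + strand (chr15:101266596-101266845) and Jun on the - strand (chr4:95052223-95052472). Capitals mark TGACG or its reverse complement CGTCA, the core of the cAMP response element bound by CREB and ATF factors.
Fos: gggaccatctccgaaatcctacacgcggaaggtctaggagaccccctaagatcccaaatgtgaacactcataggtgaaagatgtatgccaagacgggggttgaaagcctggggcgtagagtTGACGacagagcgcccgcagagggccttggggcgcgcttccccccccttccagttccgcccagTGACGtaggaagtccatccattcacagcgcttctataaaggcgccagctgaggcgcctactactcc
Junb: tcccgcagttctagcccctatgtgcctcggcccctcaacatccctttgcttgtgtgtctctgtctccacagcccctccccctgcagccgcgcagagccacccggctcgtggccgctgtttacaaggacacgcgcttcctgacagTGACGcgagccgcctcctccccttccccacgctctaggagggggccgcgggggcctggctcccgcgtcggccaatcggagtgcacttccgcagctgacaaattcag
Nr4a1: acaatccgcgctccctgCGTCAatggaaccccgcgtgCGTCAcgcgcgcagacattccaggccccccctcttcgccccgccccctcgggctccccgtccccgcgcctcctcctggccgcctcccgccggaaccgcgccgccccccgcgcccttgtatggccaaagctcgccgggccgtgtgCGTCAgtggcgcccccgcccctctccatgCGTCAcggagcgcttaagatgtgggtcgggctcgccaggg
Jun: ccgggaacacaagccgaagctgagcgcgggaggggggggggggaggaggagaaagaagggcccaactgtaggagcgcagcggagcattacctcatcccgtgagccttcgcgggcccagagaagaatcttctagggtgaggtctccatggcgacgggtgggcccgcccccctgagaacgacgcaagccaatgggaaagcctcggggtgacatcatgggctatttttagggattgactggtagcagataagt
The core occurred 4 times in the Nr4a1 window, at 233, 213, 69 and 40 bases before the start. It occurred at 129 and 66 bases in Fos and at 106 bases in Junb, and the Jun window held none. Fosb had 1 match at 60 bases, Atf3 had 1 at 7 bases, and 3 of the 5 windows of Egr2 had 2 each. Among all 32851 windows, 17.8% held TGACG on either strand. The full palindrome TGACGTCA, which contains that core on both strands, was in 1.55% of windows and in no window of the 7 genes searched. The AP-1 type motif TGANTCA (6.75% of windows) was in none of their windows either. GCGNGGGCG, the EGR motif (4.7%), was found once in Fosb and once in Nr4a1. Among the 7 genes, the CArG box bound by SRF (1.47%) was found only in windows of Egr2, and Egr1 was not searched. A match describes letters in a short window and not a bound site, and no match says only that the letters are not in that window.

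Values are TPM, a length-normalized share of the transcripts in a library, and read depth is unknown from them. A gene was tested in a tissue when its mean there was at least 1 TPM, which left 43 of 60 gene and tissue pairs. Jun, Junb, Egr1, Ier2 and Atf3 passed in all 6 tissues. Fosb and Egr2 passed in lung only, Arc in muscle and cerebellum, Fos in lung, heart, muscle and cerebellum, and Nr4a1 in every tissue but liver. In each tissue all 6 of its fixed markers averaged at or above 1 TPM. This does not single out a tissue, since all 6 heart markers did so in lung, liver and cerebellum too. Summed liver markers went down to 1162 TPM in IH liver, with a median of 40318. Summed cerebellum markers went down to 322 TPM in IH cerebellum, with a median of 3628. Between 19080 and 29241 genes were above 0 TPM per library. The liver IH library of replicate 2 at 13:30 and the cerebellum IH library of replicate 3 at 1:30 stood apart, with a median Spearman correlation to the other libraries of their tissue of 0.666 and 0.727 against at least 0.875 and 0.842 for the others.

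Lung had the highest normoxia median for 8 of the 10 genes, muscle for Nr4a1 and cerebellum for Arc. Jun, the main AP-1 partner of Fos, had the highest lung median of the 10. In normoxic lung it ranged from 86.1 to 212 TPM around a median of 165, and the medians fell through muscle (41.8), cerebellum (26.6), heart (18.6) and kidney (10.9) to liver (5.76). The interquartile ranges of neighbouring tissues in this order did not overlap. Ier2 had a median of 61.4 TPM in lung and 7.21 in kidney. Its levels in cerebellum (23.1), liver (21.0), heart (17.6) and muscle (12.7) lay between, and neighbours among these 4 overlapped. Junb stood at 47.3 TPM in lung and between 6.73 in cerebellum and 10.9 in heart elsewhere, where neighbouring tissues overlapped throughout.

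Nr4a1 was set apart in muscle. In normoxic muscle the lowest library was at 34.1 TPM, the median at 52.4 and the highest at 81.0, while lung, the next tissue, had a median of 15.1 and a highest library of 33.4. The 2 tissues did not overlap. Cerebellum (5.15), heart (3.76), kidney (1.14) and liver (0.396) followed, with cerebellum and heart overlapping in their interquartile ranges. Arc had its highest levels in cerebellum, with a lowest normoxia library of 2.11 TPM, a median of 4.81 and a highest of 8.29. The highest muscle library was at 1.68 TPM, but 1 heart library reached 2.87 TPM, so the ranges of cerebellum and heart overlapped. In the other 5 tissues its normoxia median was 0.845 TPM or less.

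Fos itself was low. Its normoxia median was 10.0 TPM in lung, 4.11 in cerebellum, 3.91 in muscle, 1.28 in heart, 0.338 in liver and 0.279 in kidney. The interquartile ranges of lung and cerebellum overlapped, as did those of cerebellum and muscle, and of liver and kidney. Egr1 followed the same order of tissues, from 9.46 TPM in lung and 8.07 in cerebellum to 0.893 in kidney. Atf3 had its highest median in lung (6.28) and lay between 0.757 in liver and 2.54 in heart elsewhere. The medians of Fosb and Egr2 were below 1 TPM outside lung, where they were 1.38 and 1.75.

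**Figure D1:**
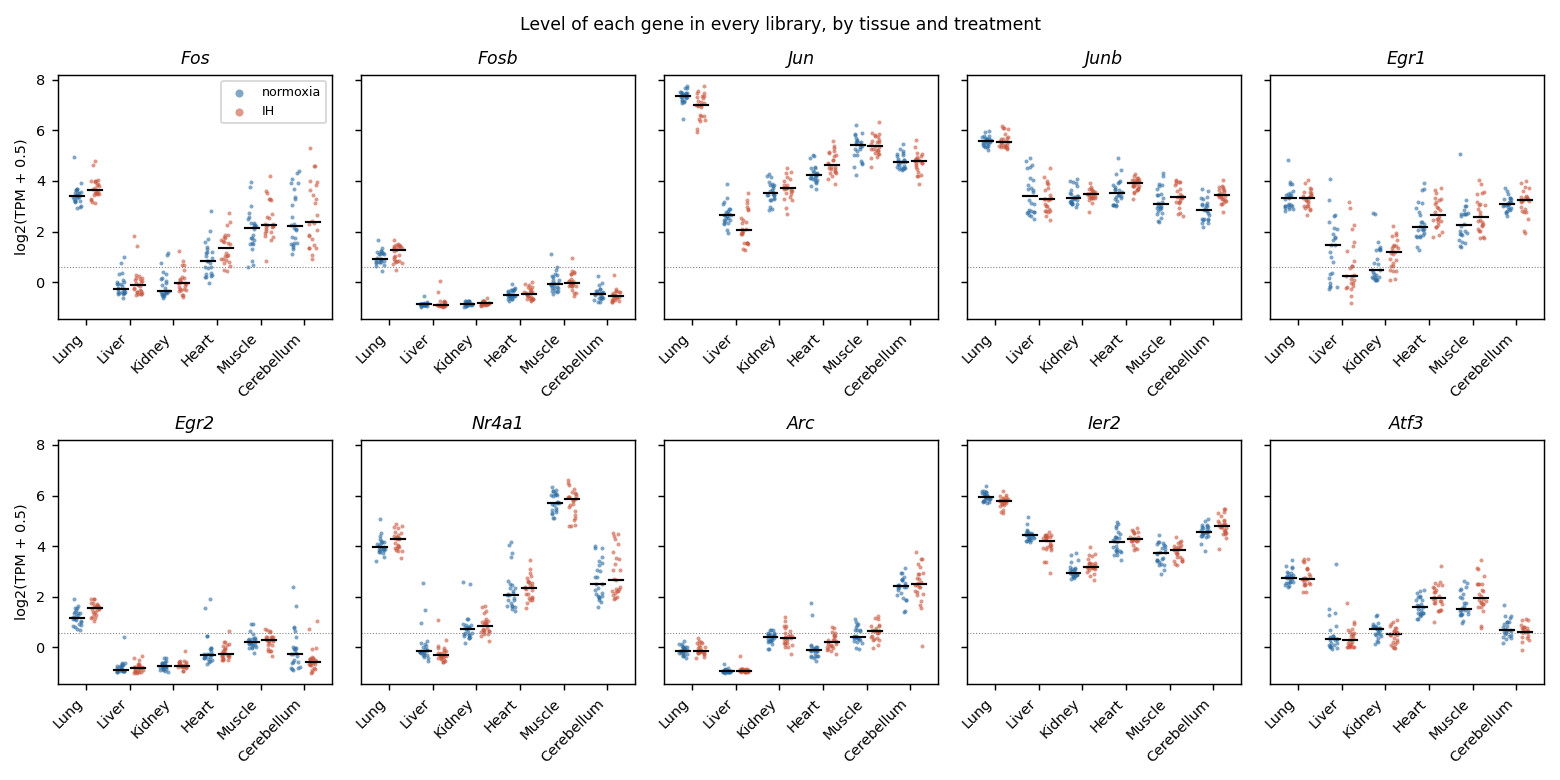
Each panel shows 1 gene, with log2(TPM + 0.5) on the vertical axis and the 6 tissues on the horizontal axis; each point is 1 of 24 libraries per tissue and treatment, black bars are medians and the dotted line marks 1 TPM. Jun is highest in lung (normoxia median 165 TPM), Nr4a1 in muscle (52.4 TPM) and Arc in cerebellum (4.81 TPM).

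Libraries of the same time point and treatment differed more for these genes than for most. In 34 of the 43 pairs, the SD of the log2 values among libraries of 1 time point lay above the median of all genes tested in that tissue, and in 11 pairs it lay above the 90th percentile. Fos reached the 98.3rd percentile in muscle (SD 0.82 on the log2 scale), the 95.7th in heart (0.73) and the 94.9th in cerebellum (1.02). Egr1 lay at the 98.2nd percentile in liver (SD 1.03), the 98.0th in kidney and the 97.9th in muscle. Nr4a1 lay at the 95.1st percentile in kidney and the 93.3rd in heart. The same genes were not variable everywhere. Egr1 was at the 35.1st percentile in cerebellum, Jun at the 11.2nd percentile there, and Ier2 at the 20.4th percentile in liver.

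**Figure D2:**
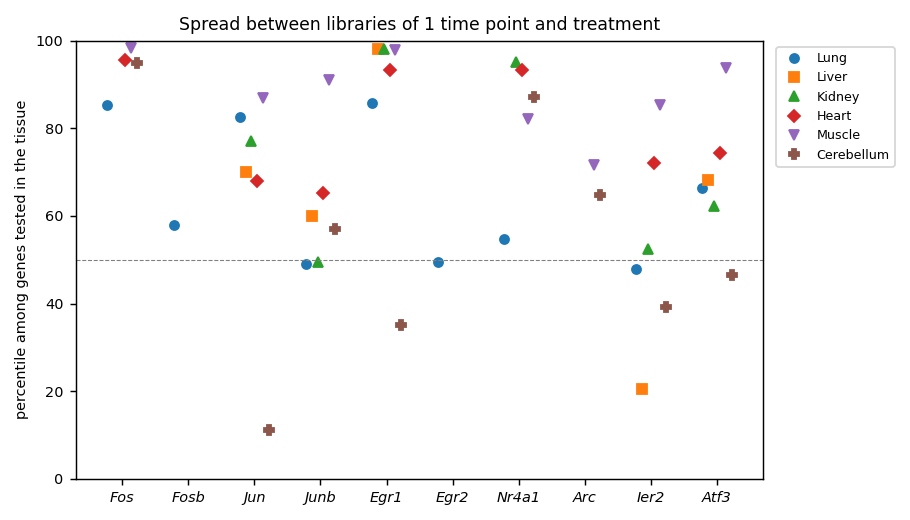
For each gene (horizontal axis) and tissue (symbol), the vertical axis gives the percentile of its SD of log2 values within time points among all genes tested in that tissue; the dashed line is the 50th percentile. Fos and Egr1 lie near the top in muscle (98.3 and 97.9), while Jun in cerebellum lies at 11.2.

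Single libraries stood far above their group. In 34 libraries a tested gene was at 3 or more times the median of its tissue and treatment, 10 of these libraries held 2 such genes, and none held 3. In normoxic liver at 1:30, Egr1 was at 0.781, 16.3 and 8.99 TPM in the 3 libraries, so a single time point spanned most of the range of the 24 libraries. In normoxic muscle at 4:30 it was at 32.6, 5.91 and 2.44 TPM, and the first of these libraries held Fos at 3.83 times its median too. In normoxic kidney, replicate 1 had 6.12 TPM of Egr1 at 1:30 and 6.04 TPM at 4:30, against a group median of 0.893. Nr4a1 was raised in the same 2 kidney libraries, at 4.53 and 4.81 times its median.

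High Fos values were found in 11 cerebellum libraries, 3 muscle libraries and 2 heart libraries. In IH cerebellum at 16:30, Fos was at 38.7, 10.3 and 4.44 TPM, and at 4:30 it was at 3.72, 23.9 and 1.36 TPM. At 13:30 all 3 IH libraries were high (15.1, 23.3 and 15.6 TPM), and the normoxia libraries were at 9.86, 19.45 and 7.71 TPM. In cerebellum, high Fos occurred in both treatments, in 6 normoxia and 5 IH libraries. Lung had no library with any gene at 3 times its median.

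The first comparison asked whether IH changed the mean level over 24 hours. A gene was called when limma gave an adjusted p of 0.05 or less and the change was at least 1.5-fold, with p-values adjusted by Benjamini-Hochberg over all genes of the tissue. Of the 43 pairs 2 were called. Jun in lung was lower after IH, but not when genes detected entered the fit (0.12 on the log2 scale, limma adjusted p 0.28). Junb in cerebellum was higher. In lung 1 of 9 genes was called, where 4.39% of all genes tested were called lower and 9.09% higher. In cerebellum 1 of 8 was called, where 1.48% of all genes were called higher and 1.16% lower. No gene was called in liver (0 of 5, against 1.1% higher and 2.55% lower among all genes), kidney (0 of 6, against 0.411% and 0.372%), heart (0 of 7, against 1.1% and 1.85%) or muscle (0 of 8, against 0.25% and 0.125%). At an unadjusted p under 0.05, 2 genes in liver, 1 in kidney, 2 in heart and 1 in muscle passed, where 37.0%, 33.0%, 52.0% and 23.9% of all genes did. With 1 gene called in a tissue, these shares are not a result about the group.

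Junb encodes an AP-1 subunit that often opposes Jun. In normoxic cerebellum its lowest, median and highest values were 4.03, 6.73 and 12.2 TPM, and after IH they were 6.34, 10.3 and 15.8 TPM. The groups overlapped, but the mean was higher after IH at 8 of 8 time points, and 23 of 24 IH libraries exceeded the normoxia median after scaling. The mean rose from 7.06 ± 2.21 to 10.6 ± 2.11 TPM (SD, n = 24 each). The log2 change was 0.59 (SE 0.11, 95% interval 0.37 to 0.80), with a limma adjusted p of 1.6e-04, just past the fold limit. Within each replicate number the change was 0.55, 0.95 and 0.27 on the log2 scale, and without replicate 2 it was 0.41 with an adjusted p of 0.21. Without the library that stood apart it was 0.56, under the fold limit, with an adjusted p of 1.5e-04. Of the fixed marker lists for blood, endothelium, heart, muscle and adipocytes, no gene was called between treatments in cerebellum. Summed blood markers ranged from 7029 to 27796 TPM in normoxia and from 8876 to 33165 TPM after IH. Summed heart markers ranged from 50.3 to 3231 TPM and from 28.5 to 7296 TPM, so tissue from elsewhere varied between libraries of both groups, and its part in the Junb values was not tested.

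Jun in lung ranged from 86.1 to 212 TPM in normoxia (median 165) and from 60.8 to 217 TPM after IH (median 128). The groups overlapped, with the lowest and the highest library both in IH. After scaling, the mean was 179 ± 23.3 in normoxia and 116 ± 37.7 after IH (SD, n = 24 each). The log2 change was -0.70 (SE 0.11, 95% interval -0.92 to -0.48, limma adjusted p 3.2e-07), and the mean was lower after IH at 8 of 8 time points. The change was smaller in 1 of the 3 replicate numbers, with -0.99 and -0.91 in replicates 1 and 2 and -0.23 in replicate 3. In TPM as deposited, Jun was 181 ± 18.4 in normoxia and 108 ± 27.2 after IH in replicate 1, 154 ± 34.4 and 110 ± 32.0 in replicate 2, and 158 ± 14.2 and 170 ± 26.3 in replicate 3 (SD, n = 8 each).

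The number of genes above 0 TPM moved with this result. Lung libraries had 22694 ± 737 such genes in normoxia and 25455 ± 1529 after IH, and the IH libraries of replicates 1 and 2 averaged 26099 and 26123 against 24143 in replicate 3. With the log2 number of genes above 0 TPM as a further term, the Jun change was 0.12 (adjusted p 0.28). Every IH lung library had at least 23622 such genes, above all normoxia libraries of replicates 1 (at most 22931) and 3 (at most 23304). Only normoxia replicate 2, with up to 25400, overlapped, so in lung this term and treatment largely go together. With TPM as deposited the Jun change was -0.40 (adjusted p 0.0012), under the fold limit. Without replicate 1 the Jun change was -0.56, again under the fold limit. Lung was shifted as a whole, since 70.4% of all genes tested there had an adjusted p of 0.05 or less. Marker lists moved too. Called lower after IH were 4 of 6 lung markers, 3 of 6 endothelial markers and 2 of 6 blood markers, while 2 of 6 heart markers and 1 of 5 tested muscle markers were called higher. In bulk tissue, fewer cells of a type and less RNA per cell cannot be told apart, and the part of cell composition in the Jun values was not tested.

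Other genes of the group passed the adjusted p but not the fold limit. In lung, Ier2 was lower (-0.51, SE 0.07, adjusted p 6.6e-09), and so were Egr1 (-0.32), Junb (-0.28) and Atf3 (-0.27). Some of these depended on the scaling. Going from scaled to deposited TPM moved the median change of all lung genes from -0.08 to 0.21, and 5 of the 9 genes turned sign, among them Junb (0.02), Atf3 (0.01), Fos (from -0.02 to 0.27), Nr4a1 (from -0.07 to 0.23) and Fosb (from -0.05 to 0.18). The share of called lung genes that were higher moved from 67.4% to 98.0%. Jun and Ier2 kept their direction on both scales, at -0.40 and -0.21 with TPM as deposited.

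In heart, Jun (0.30, SE 0.10, adjusted p 0.016) and Atf3 (0.26, adjusted p 0.045) passed the adjusted p without reaching the fold limit, 2 of 7 genes where 45.2% of all heart genes passed that p. The median change of all heart genes was 0.04 scaled and 0.15 as deposited. With genes detected as a further term Jun and Atf3 became -0.09 and -0.02. Heart libraries had 22988 to 28331 genes above 0 TPM in normoxia and 20316 to 22793 after IH. These ranges did not overlap, so in heart that term cannot be told apart from treatment. In kidney, Ier2 was higher (0.26, SE 0.08, adjusted p 0.013), and in liver it was lower (-0.23, SE 0.08, adjusted p 0.024), where 19.8% of all kidney genes and 24.2% of all liver genes passed that p. In IH kidney 4 of 6 blood markers were called higher, with summed blood markers of 2794 to 6200 TPM in normoxia and 3571 to 17410 TPM after IH, and their part in the kidney Ier2 values was not tested. Liver Egr1 had a larger difference, -0.58, but its interval ran from -1.22 to 0.07 and its adjusted p was 0.18. Fos did not pass in any of the 4 tissues where it was tested, and with TPM as deposited its adjusted p was 0.035 in lung and 0.042 in heart. Its scaled log2 change was 0.35 in heart (interval -0.02 to 0.71), 0.31 in muscle (-0.11 to 0.73), 0.14 in cerebellum (-0.47 to 0.75) and -0.02 in lung (-0.26 to 0.21). Nr4a1 did not pass in any of its 5 tissues, with values between -0.11 in muscle and 0.29 in cerebellum. With TPM as deposited its lung change was 0.23 (limma adjusted p 0.035). Egr2 in lung was at 0.095 scaled (limma adjusted p 0.26) and at 0.34 as deposited (limma adjusted p 3.1e-04), under the fold limit. Arc gave 0.06 in muscle and 0.13 in cerebellum, with adjusted p of 0.69 and 0.56.

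**Figure D3:**
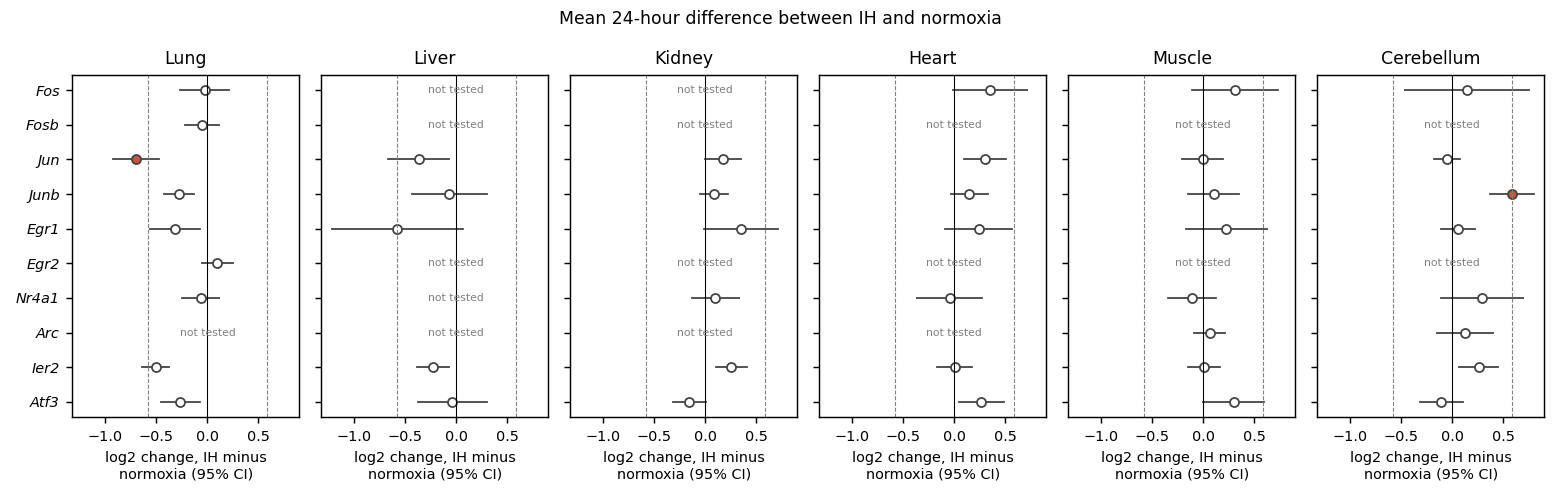
Each panel is 1 tissue and each row 1 gene; points give the log2 change (IH minus normoxia, after scaling) and bars its 95% interval, dashed lines mark 1.5-fold, filled points are called and genes under 1 TPM are shown as not tested. Jun in lung (-0.70, and 0.12 with genes detected as a further term) and Junb in cerebellum (0.59) are filled.

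The response to IH was also compared between the 6 tissues by an interaction test over the libraries of all tissues. It called 6 of the 10 genes, against 80.5% of all 18126 genes tested, so a call here is the common outcome. Ier2 gave the lowest adjusted p (9.5e-11), followed by Jun (1.9e-09), Junb (5.0e-05), Atf3 (0.0062), Egr1 (0.0074) and Egr2 (0.039). Egr2 averaged under 1 TPM outside lung, and with a pseudocount of 1 it was not called, where 79.8% of all genes were. The changes behind these calls ran from -0.51 in lung to 0.26 in cerebellum for Ier2 and from -0.70 in lung to 0.30 in heart for Jun. Junb ran from -0.28 in lung to 0.59 in cerebellum. Fos, Fosb, Nr4a1 and Arc were not called. Without replicate 2, Jun and Ier2 alone were called, where 58.7% of all genes were. Without the libraries that stood apart Arc was called in addition to the 6, where 84.2% of all genes were.

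The second comparison asked whether the genes followed a 24-hour rhythm in constant darkness. A cosine and a sine of 24 h were fitted with limma to both treatments of a tissue, and a gene was called at an adjusted p of 0.05 or less. This called 11 of the 43 pairs. They were Junb, Egr1, Jun and Atf3 in liver (4 of 5, against 19% of all genes), Nr4a1, Junb, Jun and Arc in muscle (4 of 8, against 19.6%), Junb and Nr4a1 in lung (2 of 9, against 19.1%) and Jun in kidney (1 of 6, against 26.7%). No gene was called in heart (0 of 7, against 7.25%) or cerebellum (0 of 8, against 0.396%). The rank test called 0 and 0 in these 2 tissues, against 1.24% and 0.0134% of all genes. The shares in lung and kidney are near or below those of all genes. The labels do not say whether their clock is circadian or wall time, so times are those of the labels.

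Nr4a1 in muscle had the lowest adjusted p of the 11. In normoxia its scaled mean rose to 65.3 TPM at 7:30 and fell to 39.9 TPM at 22:30. After IH it rose to 75.1 TPM at 7:30 and fell to 31.9 TPM at 22:30. At 22:30 the scaled IH values of 28.8, 40.4 and 26.4 TPM lay below every IH value at 4:30, 7:30 and 10:30, of which the lowest was 55.0. The fitted log2 amplitude, the distance from mean to peak, was 0.43, a 1.82-fold difference from trough to peak, with the peak at 8.51 h (adjusted p 6.9e-07). Nr4a1 in muscle was also called in normoxia alone and in IH alone. The amplitude was 0.30 in normoxia and 0.56 after IH, a difference with an unadjusted p of 0.059 and an adjusted p of 0.98.

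Junb peaked in the same hours in liver and muscle. In normoxic liver it was at 24.2, 26.8 and 22.1 TPM at 7:30 and at 5.07, 5.61 and 6.27 TPM at 22:30, so the groups of 3 did not overlap. After IH the values were 15.3, 12.8 and 17.2 TPM at 7:30 and 9.04, 7.98 and 6.56 TPM at 22:30. The amplitude over both treatments was 0.65 with a peak at 6.58 h (adjusted p 1.3e-06). By treatment it was 0.86 in normoxia and 0.45 after IH, with an adjusted p for the difference of 1.00. In muscle Junb peaked at 7.69 h with an amplitude of 0.34 (adjusted p 0.0021), and in lung at 5.47 h with 0.17 (adjusted p 0.025).

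Egr1 in liver had the largest fitted amplitude, 0.84, with a peak at 2.5 h (adjusted p 0.0050). Its normoxia values at 13:30 were 0.388, 0.324 and 0.366 TPM, below all 3 at 4:30 (5.86, 4.70 and 5.56 TPM). The IH values were less regular, at 0.066, 3.75 and 0.409 TPM at 13:30, and the highest of these 3 came from the library that stood apart. Without it Egr1, Junb and Atf3 were called in liver and Jun was not, where 26.3% of all liver genes were called. Jun peaked later in the day, at 13.7 h in liver (amplitude 0.31, adjusted p 0.049), 16.2 h in kidney (0.22, adjusted p 0.0091) and 16.8 h in muscle (0.26, adjusted p 0.0045). Atf3 in liver had a fitted peak at 13.2 h (0.39, adjusted p 0.021). Its highest normoxia mean was at 7:30 (2.84 scaled TPM), where the library of replicate 3 was at 12.4 times the group median. The Atf3 call was lost with TPM as deposited, with linear TPM, by the rank test and in normoxia alone. Arc in muscle peaked at 6.34 h (0.20, adjusted p 0.0055), and Nr4a1 in lung at 5.33 h (0.19, adjusted p 0.044). Fos was called in none of its 4 tissues, and in cerebellum its amplitude was 0.45 with an adjusted p of 0.37.

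Calls of rhythm depended on the test. The rank test, which compares the order of the libraries with cosine curves in each treatment and combines the p-values, called Nr4a1 alone in muscle, Junb and Egr1 in liver, and none in lung or kidney. It called fewer of all genes too, 2.99% in muscle, 11.5% in liver, 8.55% in lung and 4.49% in kidney. By limma, a change of rhythm with treatment was called for no gene of the group and for 0% of all genes in each of the 6 tissues. None of the group had an unadjusted p under 0.05 in that test, and 0.563% to 4.59% of all genes did.

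**Figure D4:**
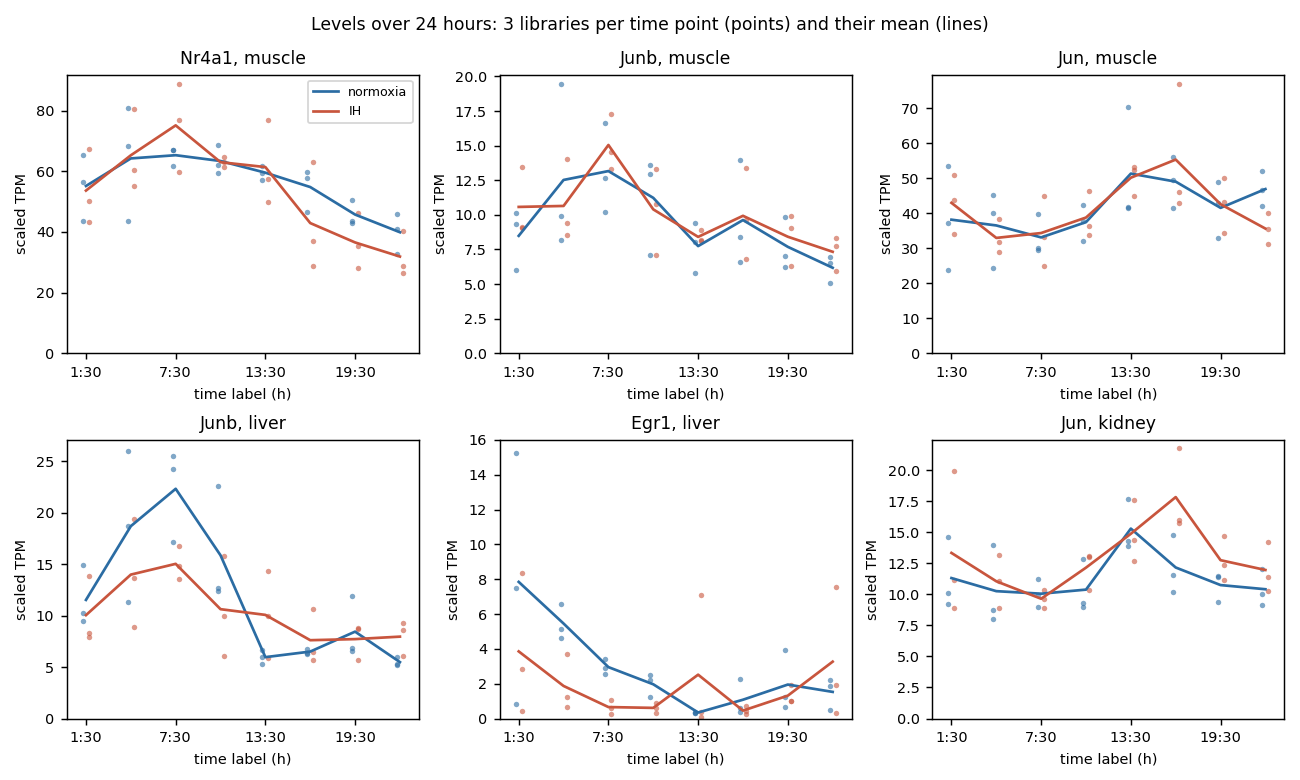
Scaled TPM (vertical axis) by time label (horizontal axis) for 6 gene and tissue pairs called rhythmic; points are the 3 libraries of a time point and lines join their means, in blue for normoxia and red for IH. Nr4a1 in muscle peaks at 7:30 in both treatments, and Junb in normoxic liver falls from 22.3 at 7:30 to 5.48 at 22:30.

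The third question was which genes varied with Fos from library to library. Fos was correlated with the other tested members within each treatment in lung, heart, muscle and cerebellum, 56 relations in all, with p-values from 100000 permutations adjusted over all genes of the tissue. The 24 libraries of a group span the 8 time points, so a shared time course contributes. Adjusted p-values have a floor, since 1e-05 is the smallest p these permutations can give. By Spearman's rho, 39.3% of all lung genes in normoxia, 4.99% of muscle genes in normoxia, 0.0269% of cerebellum genes in normoxia and 8.09% of cerebellum genes after IH passed an adjusted p of 0.05, and 0% passed in IH lung, IH muscle and either heart group.

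Egr1 had the highest rho with Fos in both muscle groups and in normoxic lung. In normoxic muscle Pearson's r was 0.83 and rho was 0.85, the highest rho of 12823 genes (permutation p 1e-05 for both, adjusted p 0.043 and 0.032), and r was 0.72 without the 2 libraries farthest from the Fos median. In IH muscle r was 0.84 and rho 0.88, again the highest (permutation p 2e-05 and 1e-05, adjusted p 0.085 and 0.064). In normoxic lung r was 0.86 and rho 0.84, the highest of 15425 genes (permutation p 1e-05 for both, adjusted p 0.026 and 0.0023), in a group where many genes passed. In IH lung Egr1 was the second by rho (0.82, permutation p 2e-05, adjusted p 0.15), after Dusp1 (0.83). In normoxic heart r was 0.63 and rho 0.39 (permutation p 0.0015 and 0.062, adjusted p 0.41 and 1.00), and r was 0.35 without 2 libraries, so the relation rested on those. In IH heart r was 0.71 and rho 0.73 (permutation p 1.8e-04 and 8e-05, adjusted p 0.14 and 0.15). Ier2 also passed in normoxic muscle, with r of 0.84 and rho of 0.75 (permutation p 1e-05 and 2e-05, adjusted p 0.043 and 0.037). Junb passed there by rho (0.64, permutation p 9e-04, adjusted p 0.042) but not by r (0.69, adjusted p 0.11). In normoxic lung Ier2 (0.78, permutation p 3e-05, adjusted p 0.0026) and Junb (0.72, permutation p 1.2e-04, adjusted p 0.0029) passed by rho, where 39.3% of all genes did.

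In cerebellum Nr4a1, not Egr1, was near the top of the order. It correlated with Fos with r of 0.93 and rho of 0.87 in normoxia and with r of 0.93 and rho of 0.93 after IH (permutation p 1e-05 for all 4, adjusted p 0.037, 0.037, 0.030 and 0.015), each time the second highest rho of 14891 genes. Without the 2 farthest libraries r was 0.94 and 0.91. In normoxic cerebellum at 22:30 the libraries had 20.5, 12.4 and 2.32 TPM of Fos and 15.8, 7.79 and 3.65 TPM of Nr4a1. In IH cerebellum at 4:30 they had 3.72, 23.9 and 1.36 TPM of Fos and 3.97, 20.7 and 3.53 TPM of Nr4a1, so the same library was high for both. Egr1 had a rho with Fos of 0.39 in normoxic and 0.058 in IH cerebellum (permutation p 0.062 and 0.79, adjusted p 0.49 and 0.87). In muscle the rho of Nr4a1 with Fos was 0.44 in normoxia and 0.19 after IH (permutation p 0.034 and 0.36, adjusted p 0.14 and 0.63). The difference between tissues was not tested. The other genes among the 5 highest by rho, named after their values were seen, were Dusp1 (0.89), Nr4a3 (0.82), Nr4a2 (0.80) and Spry4 (0.77) in normoxia, and Nr4a2 (0.94), Spry4 (0.86), Nab1 (0.84) and Eomes (0.84) after IH. Jun had a rho with Fos between -0.21 and 0.47 in the 8 groups.

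**Figure D5:**
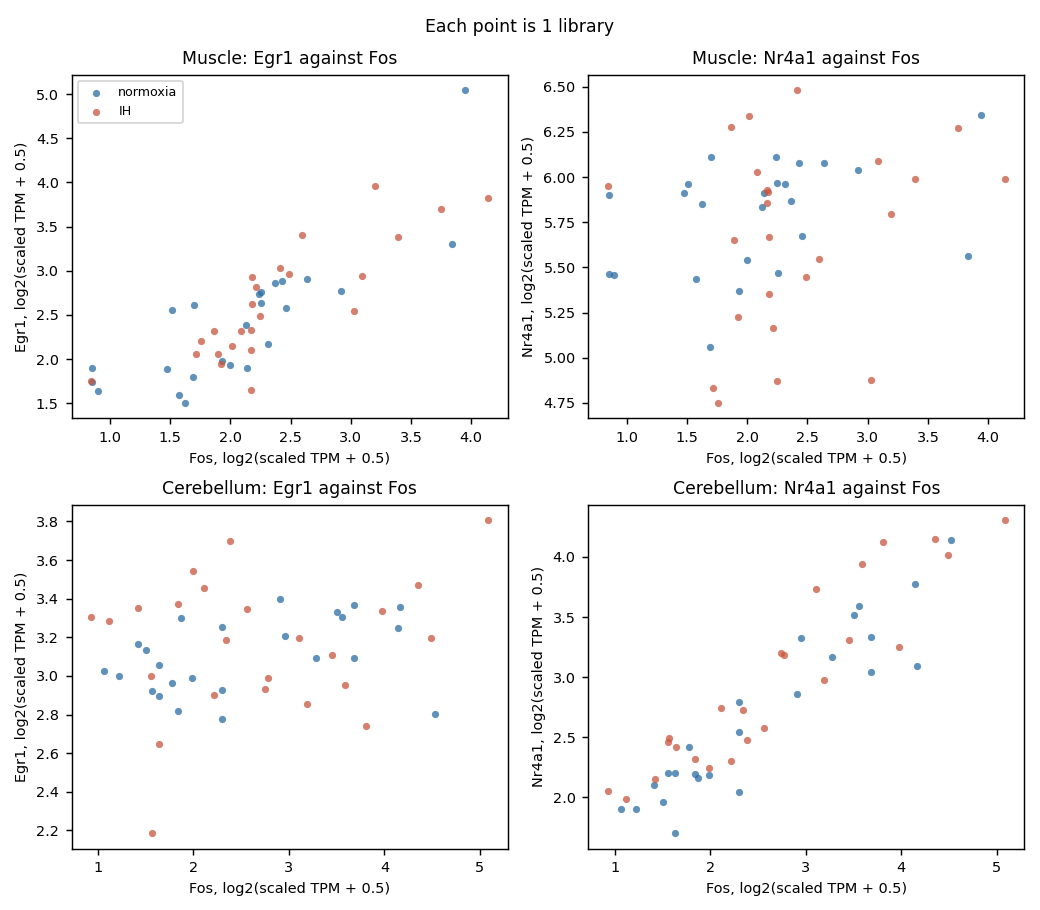
Each point is 1 library, with log2(scaled TPM + 0.5) of Fos on the horizontal axis and of Egr1 (left) or Nr4a1 (right) on the vertical axis, for muscle (top) and cerebellum (bottom), in blue for normoxia and red for IH. Egr1 follows Fos in muscle (rho 0.85 and 0.88) and Nr4a1 follows Fos in cerebellum (rho 0.87 and 0.93).

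Over all 12 groups of tissue and treatment, and among 9876 genes of at least 1 TPM in every tissue, the gene most like Fos by mean rho was Egr1 (mean rho 0.57, from 0.058 to 0.88). It was followed by Dusp1, a phosphatase that inactivates MAP kinases (0.50), Junb (0.47) and Ier2 (0.42). Next were Btg2, an antiproliferative early gene (0.37), Dusp6, a phosphatase of the same family as Dusp1 (0.33), and Zfp36, which binds AU-rich mRNAs for decay (0.33). The remaining 6 of the 10 most similar genes outside the group were Cd38 (0.29), Zfp383 (0.26), Igip (0.26), Otud1 (0.26), Gm9747 (0.26) and Ostm1 (0.25). Atf3 ranked 217 (0.16) and Jun ranked 491 (0.13). Fos had a mean under 1 TPM in the 4 groups of liver and kidney. These means are a description, and the libraries share time points.

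Of 25 other immediate early and early response genes, 21 were tested in lung. There 1 was called higher and 3 lower, against 9.09% and 4.39% of all lung genes. The 2 with the largest change were Ccn1, a secreted matrix protein (67.2 ± 13.2 to 40.7 ± 14.3 scaled TPM, log2 change -0.78, SE 0.12, adjusted p 1.5e-07), and Ier3, an early response gene (193 ± 34.5 to 116 ± 31.4, -0.76, SE 0.09, adjusted p 8.1e-10). The other 2, named after their values were seen, were Jund, an AP-1 subunit (-0.60), and Nr4a2 (0.63). With genes detected as a further term the changes were -0.21 for Ccn1, -0.33 for Ier3, 0.07 for Jund and 0.41 for Nr4a2. With TPM as deposited they were -0.48, -0.46, -0.29 and 0.91, so Ccn1, Ier3 and Jund lay under the fold limit. The median change of the 21 was -0.31 against -0.08 for all lung genes. In the other 5 tissues 18 to 22 genes of this list were tested and none was called, with 3 in liver, 4 in kidney, 10 in heart, 2 in muscle and 5 in cerebellum at an unadjusted limma p under 0.05, where 37.0%, 33.0%, 52.0%, 23.9% and 30.3% of all genes had one.

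Of 18 feedback inhibitors and mRNA decay factors, 1 was called in any tissue. Rgs2, a regulator of G protein signaling, was higher in IH liver (1.80 ± 0.618 to 3.67 ± 4.06 scaled TPM, log2 change 0.65, SE 0.17, adjusted p 0.0042). The IH libraries ranged from 1.19 to 22.1 with a median of 2.80. Without the library that stood apart the change was 0.53 (adjusted p 0.0017), under the fold limit. In IH liver 6 of 6 heart markers, 6 of 6 blood markers and 3 of 3 tested kidney markers were called higher, and their part in the Rgs2 values was not tested. All 18 were tested in lung, and 11 of them had an unadjusted p under 0.05, where 72.6% of all lung genes did, all lower, with none past the fold limit (median -0.23). Outside liver no gene of this list was called. In heart 10 of 18 had an unadjusted p under 0.05, where 52.0% of all genes did, all higher, with a median of 0.18 against 0.04 for all genes. Of 21 upstream kinases and transcription factors, including Srf and Creb1, none was called in any tissue. Their medians lay between -0.04 in muscle and 0.08 in cerebellum, and 14 of 20 in lung had an unadjusted p under 0.05, 7 in each direction, a share near the 72.6% of all lung genes. By rhythm, 9 of 21 tested genes of the first list were called in lung, 7 of 18 in liver, 11 of 19 in kidney, 3 of 19 in heart, 8 of 20 in muscle and 0 of 22 in cerebellum, against the shares of all genes given above.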

How the data were processed

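The authors deposited TPM values per gene, made by kallisto against Ensembl release 102 from libraries of poly(A)-selected RNA, according to the study's methods. The submitters' processing notes also name mm10, bcl2fastq, FastQC 0.11.3 and DESeq2. Estimated counts were not analysed here, so the depth behind each value is unknown. All columns were matched to samples by title. The 10 genes and all gene lists were chosen with earlier results of these data known.

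For each tissue, libraries were scaled by their median of ratios, and log2(TPM + 0.5) was tested with limma 3.58.1 (R 4.3.3, moderated test with an intensity trend), in genes averaging 1 TPM or more, so fold changes of low genes are understated. The interaction test used genes with that mean in at least 1 tissue. Comparisons of treatments used moderated 2-sided tests and the rhythm, rhythm change and interaction tests were F tests, with p-values adjusted by Benjamini-Hochberg over all genes tested. Correlations used 2-sided permutation tests in Python (numpy 2.4.6). Scripts were tested on simulated data. The study took 3 mice per time point and treatment, but the labels do not tie libraries to mice, so p-values measure the spread between these libraries, and libraries of different tissues may share a mouse. The fit followed the study's thresholds (adjusted p 0.05, 1.5-fold) but used TPM in place of counts. Alternatives were pseudocounts of 0.1 and 1, other TPM minimums, no scaling, further terms for time point, replicate number and genes detected, and leaving out replicates or libraries. No 2 libraries of a tissue were identical. Named genes were all members, every called pair in full, the 2 called genes with the largest change per list and tissue, and the 10 non-members most like Fos. Promoters were taken from RefSeq tables.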

Additional observations from a re-analysis of the deposited data

Results flagged for a closer look

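The response to IH differed between the 6 tissues for 6 of the 10 genes by the interaction test of limma, with adjusted p-values of 9.5e-11 for Ier2, 1.9e-09 for Jun, 5.0e-05 for Junb, 0.0062 for Atf3, 0.0074 for Egr1 and 0.039 for Egr2. The same test called 80.5% of all genes, so these calls do not set the group apart. With a pseudocount of 1 Egr2 was not called. On the log2 scale, Ier2 was at -0.51 in lung, -0.23 in liver, 0.26 in kidney, 0.00 in heart, 0.01 in muscle and 0.26 in cerebellum. Junb was at -0.28 in lung, -0.07 in liver, 0.08 in kidney, 0.15 in heart, 0.10 in muscle and 0.59 in cerebellum. The lung value of Junb was 0.02 with TPM as deposited.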

How the results depend on the processing

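Depth could not be assessed from TPM. Between treatments, liver, kidney, heart and muscle had 0 genes called in all alternatives. The 1 call in lung became 0 with TPM as deposited and 0 with genes detected as a further term. Leaving out a replicate left 1 call in each case, but without replicate 1 the gene called was Ier2, not Jun. Jun moved to 0.12 on the log2 scale (limma adjusted p 0.28) with genes detected as a further term. In lung that term and treatment largely go together, and the cause was not tested. The 1 call in cerebellum became 0 with a pseudocount of 1, with TPM as deposited, with genes detected as a further term and without the library that stood apart. The Junb change was then 0.55, 0.58, 0.52 and 0.56, with adjusted p from 1.5e-04 to 0.0014, so only the fold limit was crossed. Leaving out a replicate gave 0 to 2 calls, 0 without replicate 2 and Junb with Nr4a1 without replicate 3, as the share of all genes called went from 2.64% to 0.207% and 13.1%.

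Calls of rhythm moved more. In lung the 2 calls became 0 with no minimum TPM, in IH alone and by the rank test, and 1 with TPM as deposited, time point as a factor or linear TPM. In normoxia alone 1 gene was called, Jun, which is neither of the 2. The share of all lung genes called went from 19.1% to 7.56% with no minimum, 4.28% in IH alone and 9.01% in normoxia alone. It was 8.55% by the rank test, 16% with TPM as deposited, 7.82% with the time factor and 15.9% with linear TPM. In liver the 4 calls became 2 with no minimum TPM, TPM as deposited, time point as a factor, linear TPM, normoxia alone or the rank test, and 0 in IH alone. The share of all liver genes went from 19% to between 6.4% (no minimum) and 17.7% (normoxia alone) in these 6, with 10.7% for the time factor and 11.5% for the rank test, and to 2.63% in IH alone. The 2 genes left in liver were Junb and Atf3 with time point as a factor, where Egr1 was lost. In the other settings with 2 calls they were Junb and Egr1. The 1 call in kidney became 0 with linear TPM, in either treatment alone and by the rank test, with 13.2%, 20.9% (normoxia), 5.64% (IH) and 4.49% of all genes against 26.7%. Heart went from 0 to 1 (Jun) with time point as a factor, with 3.58% of all genes against 7.25%. In muscle the 4 calls became 2 with time point as a factor and 1 (Nr4a1) in either treatment alone and by the rank test, with 9.12%, 6.36% (normoxia), 8.71% (IH) and 2.99% of all genes against 19.6%. Fits in 1 treatment alone hold fewer libraries. Leaving out a replicate gave 0 to 1 calls in lung, 1 to 3 in liver, 0 to 1 in kidney and 1 to 4 in muscle. Without replicate 3 the kidney call was Junb, not Jun, and the 3 liver calls were Jun, Junb and Ier2. With a replicate left out, the share of all genes was 9.08% to 14.5% in lung and 11.7% to 16.1% in liver. It was 11.5% to 22.2% in kidney and 9% to 14.7% in muscle. The interaction called 5 genes with a pseudocount of 1, where Egr2 was lost, with 79.8% of all genes called. It called 4 with genes detected as a further term, where Egr2 and Atf3 were lost, with 74.3% of all genes called. When a replicate was left out it called 2 to 6 genes, with 2 without replicate 2. The share of all genes called by the interaction was 57.9%, 58.7% and 87% without replicates 1, 2 and 3, against 80.5% with all.

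The labels do not say whether replicate numbers pair the samples. Same-numbered normoxia and IH libraries correlated at r between -0.55 and 0.57, over 0.1 in 5 to 16 of 24 pairs per tissue. The median r ran from -0.14 in lung to 0.22 in liver, where 16 of the 24 pairs were over 0.1. With the replicate block, the treatment calls were the same 1 in lung (Jun, -0.70, adjusted p 5.6e-08) and 1 in cerebellum (Junb, 0.59, adjusted p 4.8e-05). The rhythm calls were 3 in lung and 5 in liver, and the interaction called 6. Among all genes, the share called rhythmic rose with that block from 19.1% to 20.9% in lung. It rose from 19% to 25.5% in liver and from 19.6% to 24.6% in muscle, so replicate number tracked some variation there. The fits without the libraries that stood apart for rhythm and interaction were chosen after seeing the data.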
